A study of Mus musculus with 10 samples.

Results

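The liver and the lung each hold a macrophage of their own, and 10 genes that mark these cells were followed through mouse small cell lung cancers. Clec4f, Vsig4, Cd5l, Timd4, Marco and Folr2 are markers of Kupffer cells, and Chil3, Ear1, Ear2 and Krt79 are markers of alveolar macrophages. The members were chosen by symbol, and all 10 were found among the 35288 genes of the table.

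Kupffer cells line the sinusoids of the liver, where they clear bacteria, worn red cells and dying cells from the blood. Alveolar macrophages live in the airspaces of the lung, where they clear surfactant and inhaled particles. Both are long-lived resident cells that differ from macrophages newly recruited into a tumor, and in a dissected tumor their RNA can come from adjoining host tissue. Some of the markers are shared: Marco is known from both cells in mice, and Chil3 is also made by monocytes and neutrophil precursors.

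RNA was sequenced from 10 tumors of 6 mice. RPR2 mice lose 3 tumor suppressors, the products of Rb1, Trp53 and Rbl2, and mice of the genotype RPR2;Nfibf/f, called Nfib-floxed here, carry floxed alleles of the transcription factor gene Nfib in addition. The groups were Nfib-floxed liver metastases (n = 2, mice JHK1398 and JHK1399), RPR2 liver metastases (n = 2, JHK1373 and JHK1394), Nfib-floxed lung tumors (n = 3, JHK997, JHK1398 and JHK1399) and RPR2 lung tumors (n = 3, JHK1373, JHK1394 and JHK1548). All tumors were cut out by hand at morbidity, so every library can hold host tissue, and no library of tumor-free liver or lung was used. The labels give no Cre driver, age or sex. Levels are in TPM, a share of transcripts that adds up to 1000000 in each library and is corrected for gene length, but keeps no depth, so the depth behind each value is unknown.

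Nfib, read over the whole gene, had 46.1 and 41.3 TPM in Nfib-floxed metastases (JHK1398 and JHK1399), against 62.8 and 643 TPM in RPR2 metastases (JHK1373 and JHK1394). In lung tumors it had 38.6, 38 and 26.5 TPM (Nfib-floxed JHK997, JHK1398 and JHK1399), against 85.3, 28.3 and 118 TPM (RPR2 JHK1373, JHK1394 and JHK1548). The lung tumors overlapped, and as the labels do not name the floxed exons, a level for the whole gene checks the genotype only weakly.

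The libraries differed in how much host tissue they showed. The summed level of 18 hepatocyte genes was 182 and 3997 TPM in the Nfib-floxed metastases of JHK1398 and JHK1399, 12982 and 13507 TPM in RPR2 metastases, and 260.2 to 1542 TPM in the 6 lung tumors. By this measure the Nfib-floxed metastasis of JHK1398 held no more hepatocyte RNA than a lung tumor, and its expression over all genes was most like that of the RPR2 lung tumor of JHK1373 (Pearson r of log2(TPM + 1) 0.971, against 0.965 with the other Nfib-floxed metastasis, whose own closest library was the same lung tumor at 0.969). Among lung tumors, the club cell gene Scgb1a1 made up 5.48% of the TPM of the RPR2 tumor of JHK1394 and 5.02% of the Nfib-floxed tumor of JHK1398, against 0.136% to 0.965% in the others. In metastases, 7 erythroid genes summed to 476 and 42988 TPM (Nfib-floxed JHK1398 and JHK1399), against 64959 and 4142 TPM (RPR2 JHK1373 and JHK1394). The sum of 10 neuroendocrine tumor cell genes was 3511 and 4418 TPM in these Nfib-floxed metastases, against 2565 and 2532 TPM. The part of these sums in the results was not tested. Hepatocyte RNA does not bear out liver tissue in the metastasis of JHK1398, but this does not decide its label. Its Scgb1a1 stood at 6.92 TPM, against 1358 to 54787 TPM in lung tumors. Its Sftpc, an alveolar type 2 cell gene, stood at 4.6 TPM, against 73.3 to 5061 TPM. The origin of this library was not tested, and it is 1 of the 2 libraries behind every Nfib-floxed metastasis value.

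The sequences of the 2 sets of markers differ in how well reads can be assigned. In the GENCODE M21 transcripts, none of the 31-base words of Clec4f, Vsig4, Cd5l, Timd4, Marco or Folr2 occurs in a transcript of another gene. For Krt79 the share was 0.252%, for Chil3 41.5% (28.9% with Chil4 and 24.1% with Gm6522), for Ear2 60.5% and for Ear1 73.6%. Ear1 and Ear2 lie on chromosome 14 (GRCm38, Ear1 43818765 to 43875517 on the minus strand, Ear2 44102654 to 44103534 on the plus strand) and encode eosinophil-associated ribonucleases. Their coding sequences, of 465 and 468 bases, are identical at 445 of 468 aligned positions (95.1%). The stretch of 90 bases shown runs from base 81 to 170 of each coding sequence (from 1 at the A of the start codon). It was chosen as the stretch of this length, without a gap, where the most positions differ. Capitals mark the 8 bases that differ, and the sequences are from GENCODE M21.
Ear1: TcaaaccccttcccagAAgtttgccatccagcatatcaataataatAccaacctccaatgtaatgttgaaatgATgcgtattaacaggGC
Ear2: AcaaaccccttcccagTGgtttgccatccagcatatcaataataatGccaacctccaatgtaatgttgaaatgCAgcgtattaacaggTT
The split of reads between Ear1 and Ear2 is therefore uncertain, and so is that between Chil3 and its copies, while the Kupffer cell markers are free of this limit. Of the genes that share most, Ear-ps9, Ear-ps2 and Gm6522 were listed at 0 TPM in all 10 libraries. Ear6 and Ear10 were also listed at 0 TPM in all 10, Ear14 at 0 in all but the RPR2 metastasis of JHK1373 (0.0829 TPM), and Chil4 had at most 0.439 TPM.

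Promoters are shown for Clec4f, Vsig4 and Marco, the members that passed the threshold between genotypes in metastases (values below). Each window runs from 250 bases before to 50 after the RefSeq gene start, in build GRCm38.p6, written 5′ to 3′ along the gene. Capitals mark GAGGAA or its reverse complement TTCCTC, letters found in sites of PU.1, a transcription factor of the macrophage lineage.
Clec4f, chr6:83656067-83656366, minus strand: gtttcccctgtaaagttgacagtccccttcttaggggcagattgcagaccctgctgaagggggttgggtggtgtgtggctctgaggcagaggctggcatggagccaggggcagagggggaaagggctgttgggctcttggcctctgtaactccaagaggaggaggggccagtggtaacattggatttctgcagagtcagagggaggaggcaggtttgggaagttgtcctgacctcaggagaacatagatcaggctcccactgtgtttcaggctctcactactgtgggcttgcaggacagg
Vsig4, chrX:96293389-96293688, minus strand: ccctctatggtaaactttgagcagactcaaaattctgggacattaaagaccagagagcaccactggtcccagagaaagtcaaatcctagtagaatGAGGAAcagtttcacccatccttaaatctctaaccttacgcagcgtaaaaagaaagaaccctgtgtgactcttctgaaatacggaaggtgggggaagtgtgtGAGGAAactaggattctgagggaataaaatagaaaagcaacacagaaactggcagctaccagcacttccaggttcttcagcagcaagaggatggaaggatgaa
Marco, chr1:120504975-120505274, minus strand: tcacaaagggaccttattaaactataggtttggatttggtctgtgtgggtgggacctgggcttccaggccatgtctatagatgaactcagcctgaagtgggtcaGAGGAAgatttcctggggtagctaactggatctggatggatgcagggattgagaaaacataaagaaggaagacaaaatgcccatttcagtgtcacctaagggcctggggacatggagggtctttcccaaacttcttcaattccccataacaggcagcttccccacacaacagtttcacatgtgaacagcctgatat
These letters occurred at 2 places in the Vsig4 window and at 1 place in each of the Marco and Cd5l windows, and in none of the windows of the other 7 members. They occur in 28.3% of all 32851 promoter windows of this length, so the 3 of 10 members lie near the background. The E-box CACGTG was in no member window, against 7.15% of all windows. The MAF half-site TGCTGA or its reverse complement TCAGCA, not marked above, was in windows of Cd5l, Chil3, Clec4f, Folr2, Timd4 and Vsig4. It was in no window of Marco, Ear1, Ear2 or Krt79, against 19.5% of all windows. A match is a description of letters only.

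Clec4f, Vsig4 and Cd5l were highest in RPR2 metastases by a wide margin. Clec4f, a galactose-binding lectin found on Kupffer cells in mice, had 1.36 and 5.28 TPM in the Nfib-floxed metastases of JHK1398 and JHK1399, against 23.1 TPM (JHK1373) and 24.9 TPM (JHK1394) in RPR2 metastases. In Nfib-floxed lung tumors it had 0.0829, 0.108 and 0.0758 TPM (JHK997, JHK1398 and JHK1399), against 0.0549, 0.204 and 1.28 TPM in RPR2 lung tumors (JHK1373, JHK1394 and JHK1548). All 4 metastases thus lay above all 6 lung tumors, and the Nfib-floxed metastases lay between the RPR2 metastases and the lung tumors.

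Vsig4 encodes a complement receptor that binds C3b-coated particles. It had 1.35 and 3.28 TPM in the Nfib-floxed metastases of JHK1398 and JHK1399, against 23.8 and 14.6 TPM in the RPR2 metastases of JHK1373 and JHK1394. Its range was 0.678 to 1.62 TPM in Nfib-floxed lung tumors and 0.754 to 2.5 TPM in RPR2 lung tumors. The RPR2 metastases stood clear of the lung tumors. The Nfib-floxed metastasis of JHK1399 lay just above all lung tumors, and that of JHK1398 lay within their range.

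Cd5l encodes a secreted scavenger receptor protein, also called apoptosis inhibitor of macrophages. It had 7.48 and 4.81 TPM in the Nfib-floxed metastases of JHK1398 and JHK1399, against 58.1 and 32.7 TPM in the RPR2 metastases of JHK1373 and JHK1394. In lung tumors it ranged from 0.417 to 1.83 TPM (Nfib-floxed) and from 1.39 to 7.49 TPM (RPR2). The top of the RPR2 lung tumors, JHK1548, reached the level of the Nfib-floxed metastases.

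Marco, a scavenger receptor for bacteria and particles, followed another order. It had 0.187 and 0.0838 TPM in the Nfib-floxed metastases of JHK1398 and JHK1399, against 21.2 and 11.9 TPM in the RPR2 metastases of JHK1373 and JHK1394. Nfib-floxed lung tumors had 0.507 TPM (JHK997), 6.32 TPM (JHK1398) and 5.9 TPM (JHK1399), against 3.25 TPM (JHK1373), 12.6 TPM (JHK1394) and 9.03 TPM (JHK1548) in RPR2 lung tumors. Both Nfib-floxed metastases lay below every other library. The RPR2 metastases overlapped the RPR2 lung tumors.

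Timd4 and Folr2 overlapped between metastases and lung tumors. Timd4, a receptor for phosphatidylserine on dying cells, had 0.322 and 0.499 TPM in Nfib-floxed metastases (JHK1398 and JHK1399), against 6.02 and 2.37 TPM in RPR2 metastases (JHK1373 and JHK1394). In lung tumors it ranged from 0.375 to 4.18 TPM (Nfib-floxed) and from 1.11 to 4.35 TPM (RPR2). Folr2, the folate receptor beta, had 0.914 and 2.4 TPM in Nfib-floxed metastases, against 10.6 and 6.73 TPM in RPR2 metastases, and 0.978 to 5.65 TPM (Nfib-floxed) and 3.64 to 7.7 TPM (RPR2) in lung tumors. Both had their highest value in the RPR2 metastasis of JHK1373, and for both the lung tumors of the 2 genotypes overlapped.

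**Figure D1:**
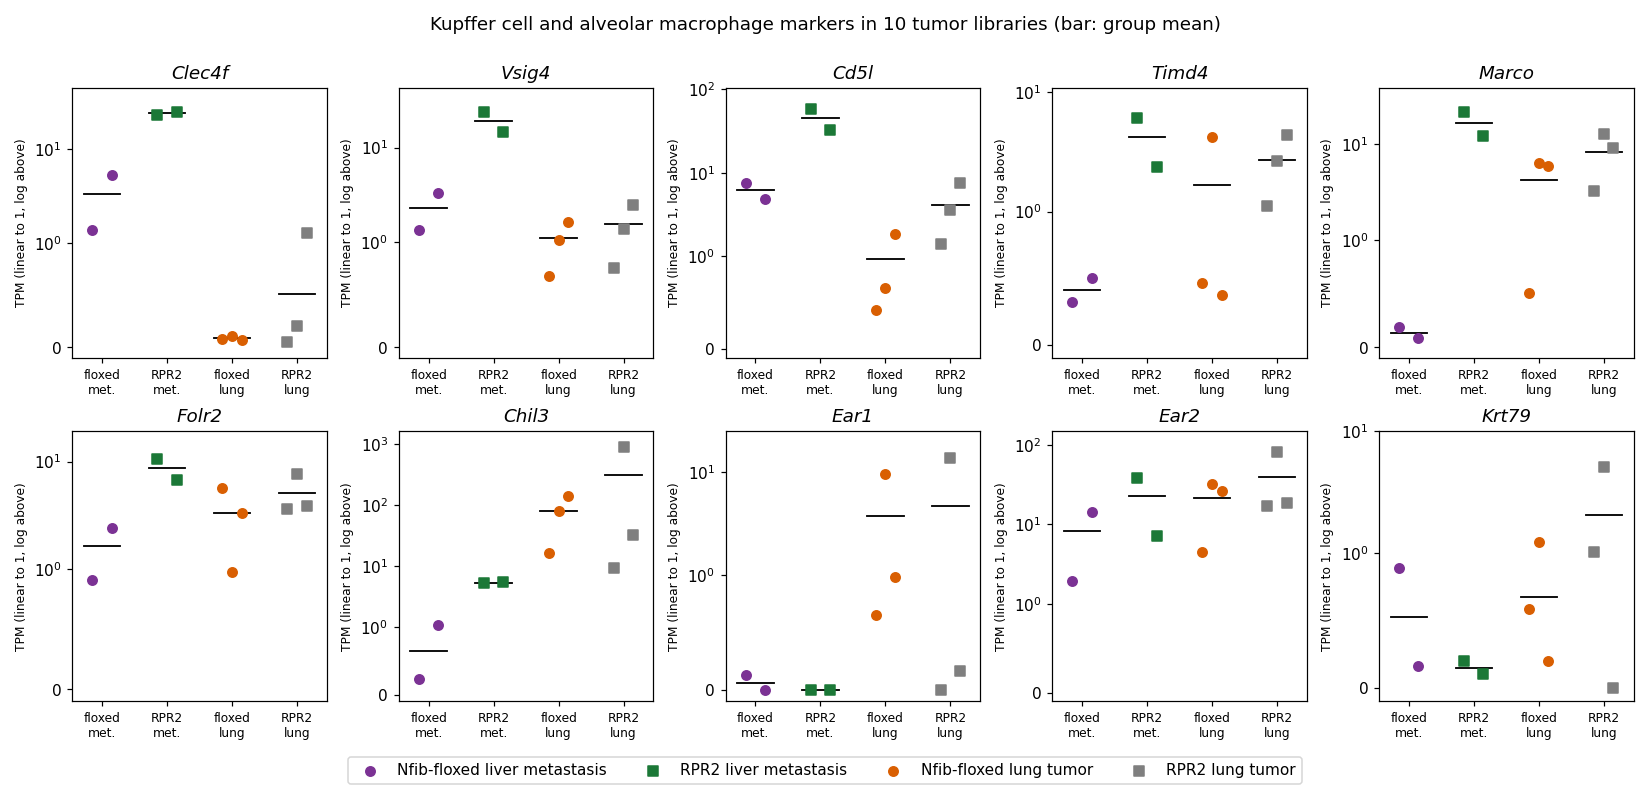
TPM (linear up to 1 and log above) of the 10 markers, with 1 point per library and a bar at the group mean, for Nfib-floxed metastases, RPR2 metastases, Nfib-floxed lung tumors and RPR2 lung tumors. Clec4f runs from at most 1.28 TPM in lung tumors to 24.9 TPM in metastases, and Chil3 from at most 5.44 TPM in metastases to 889.5 TPM in a lung tumor.

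Of the alveolar macrophage markers, Chil3 had the widest range. Chil3 encodes Ym1, a chitinase-like protein without chitinase activity. It had 0.23 and 1.07 TPM in Nfib-floxed metastases (JHK1398 and JHK1399) against 5.2 and 5.44 TPM in RPR2 metastases (JHK1373 and JHK1394). In Nfib-floxed lung tumors it had 16.2 TPM (JHK997), 79.0 TPM (JHK1398) and 139 TPM (JHK1399), against 9.26 TPM (JHK1373), 889.5 TPM (JHK1394) and 31.7 TPM (JHK1548) in RPR2 lung tumors. All 6 lung tumors lay above all 4 metastases, and within lung tumors the spread exceeded any difference between the genotypes.

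Ear1 was listed at 0 in 3 of the 4 metastases and at 0.13 TPM in the Nfib-floxed metastasis of JHK1398. In Nfib-floxed lung tumors it had 0.655, 9.66 and 0.983 TPM (JHK997, JHK1398 and JHK1399), against 0, 13.9 and 0.169 TPM in RPR2 lung tumors (JHK1373, JHK1394 and JHK1548). The high values were those of the tumors richest in Scgb1a1. Ear2 was found in every library, with 1.93 and 14.4 TPM in Nfib-floxed metastases and 38.3 and 7.17 TPM in RPR2 metastases, against 4.5 to 32.6 TPM in Nfib-floxed and 16.9 to 82.2 TPM in RPR2 lung tumors. Its groups overlapped in every comparison.

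Krt79 encodes a keratin of skin and hair follicles that mouse alveolar macrophages also express. It averaged 0.949 TPM over the 10 libraries, below the minimum of 1 TPM for a test, and is the member without one. It had 0.885 and 0.159 TPM in Nfib-floxed metastases, against 0.199 and 0.101 TPM in RPR2 metastases. Lung tumors had 0.584, 1.23 and 0.202 TPM (Nfib-floxed), against 1.01, 5.12 and 0 TPM (RPR2), with the top again in JHK1394. Of 10 keratinocyte genes, Krt5, Krt6a, Krt6b, Krt1, Trp63 and Dsg3 stayed below 1 TPM in every library. The rest did not: Krt10 had 7.96 to 24.6 TPM across the libraries, and Krt17 reached 10.9 TPM in the RPR2 metastasis of JHK1373. Krt15 reached 4.2 TPM in the RPR2 lung tumor of JHK1548, and Krt14 1.15 TPM in the Nfib-floxed metastasis of JHK1399.

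The first comparison asked how metastases in the liver differ from tumors in the lung. Within RPR2 mice, Clec4f, Cd5l and Vsig4 rose in metastases. Clec4f was higher by 4.13 ± 0.53 (difference of mean log2(TPM + 1) ± standard error, limma, adjusted p = 0.0025, n = 2 and 3), Cd5l by 3.31 ± 0.59 (adjusted p = 0.00906) and Vsig4 by 3.01 ± 0.50 (adjusted p = 0.00659). On this scale the change of a low gene is understated. The threshold was an adjusted p of 0.05, by Benjamini-Hochberg over the 15503 genes that averaged 1 TPM or more. Further, a bulk value cannot tell fewer cells of a type from less RNA per cell. The 3 risen members of 9 tested stand beside 2.04% of all genes called higher and 5.61% called in either direction. The same 3 were the members whose groups did not overlap in this direction, against 15.1% of genes, and Chil3 alone lay lower without overlap, against 31% of genes (-3.40 ± 1.50, adjusted p = 0.253).

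The median log2 difference over the 6 Kupffer cell markers was 2.01, and over the 3 tested alveolar macrophage markers -1.37, beside -0.15 over all genes. Marco (1.02 ± 0.74), Folr2 (0.70 ± 0.59) and Timd4 (0.49 ± 0.67) did not pass. Clec4f kept its call in all 23 alternatives, the one with no filter among them. It averaged 0.089 TPM in Nfib-floxed and 0.514 TPM in RPR2 lung tumors, so it met the minimum of 1 TPM only through metastases. With the filter, its call between tissues thus rests on the libraries that let it into the test. When the RPR2 metastasis from JHK1373 was left out, Vsig4 (adjusted p = 0.0726) and Cd5l (adjusted p = 0.0995) were lost, and Cd5l was lost when that from JHK1394 was (adjusted p = 0.05 after rounding). With quantile normalization the calls over all genes split into 407 higher and 408 lower, against 316 and 553, and the 3 members stayed called. The hepatocyte list moved with them: 15 of its 18 genes rose, including Alb (3760.4 and 3555 TPM in RPR2 metastases, 20.9 to 109.5 TPM in RPR2 lung tumors), and its part in the result was not tested. Without the Scgb1a1-rich lung tumors 8 of the 15 still passed.

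In Nfib-floxed mice the same comparison called no member of 9 by limma, beside 0.123% of genes, and 4 members had an unadjusted p under 0.05, beside 9.39% of genes. Clec4f lay 1.82 ± 0.53 higher in metastases (adjusted p = 0.325) and Cd5l 1.90 ± 0.59 higher (adjusted p = 0.358), both without overlap (7.76% of genes lie so). Chil3 lay 5.18 ± 1.50 log2 units lower (difference -5.18, adjusted p = 0.324) and Marco 1.90 lower (-1.90 ± 0.74, adjusted p = 0.461). These and Ear1 did not overlap either, beside 14.8% of genes. Without the metastasis of JHK1398 the differences were 2.53 for Clec4f, 1.63 for Cd5l, -4.81 for Chil3 and -1.97 for Marco, and none passed. Marco thus lay above the lung tumor level in RPR2 metastases by its mean and below it in Nfib-floxed ones, but no member passed in the interaction, the test of whether the tissue differences differ by genotype (0 of 9 called by limma, beside 0.581% of genes). The interaction was -2.41 ± 0.70 for Vsig4 (adjusted p = 0.244), -2.31 ± 0.76 for Clec4f (adjusted p = 0.292) and -2.92 ± 1.04 for Marco (adjusted p = 0.348), 3 members with an unadjusted p under 0.05 beside 9.68% of genes.

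Averaged over both genotypes, 4 of the 9 tested members changed between metastases and lung tumors, beside 5.88% of genes. Clec4f (2.98 ± 0.38, adjusted p = 0.00338), Cd5l (2.60 ± 0.42, adjusted p = 0.00913) and Vsig4 (1.81 ± 0.35, adjusted p = 0.0174) rose, beside 1.76% of genes called higher. Chil3 fell (-4.29 ± 1.06, adjusted p = 0.0426), beside 4.12% of genes called lower. Over all genes 273 were called higher and 638 lower, and with quantile normalization 371 and 381. By value alone, Clec4f was the member that lay higher in all 4 metastases than in all 6 lung tumors, as did 0.587% of genes, and Chil3 the member that lay lower, as did 4.16%. This comparison draws on the same libraries as the 2 within genotypes and is no independent support for them. Here too Clec4f met the minimum of 1 TPM only through the metastases, where it is high.

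The call of Chil3 did not hold in 13 of 22 alternatives, with adjusted p from 0.0208 to 0.174 over all 22. It was lost with quantile normalization (adjusted p = 0.0704) and median centring (adjusted p = 0.0642), without either lung tumor of the Nfib-floxed mice JHK1398 and JHK1399, without the RPR2 lung tumor of JHK1548 and without any of the 4 metastases. Without the Scgb1a1-rich lung tumors of JHK1394 and JHK1398 its difference was -3.24 (adjusted p = 0.0505), and Vsig4 missed as well (adjusted p = 0.0541). Vsig4 was also lost without either RPR2 metastasis (adjusted p = 0.0793 and 0.0558) and with mouse as a fixed block (adjusted p = 0.0746). Beside Chil3, the alveolar type 2 cell list summed to 31.9 and 53.9 TPM in Nfib-floxed metastases and 22.9 and 65.1 TPM in RPR2 metastases, against 181, 3196 and 850.3 TPM in Nfib-floxed and 284, 8143 and 394 TPM in RPR2 lung tumors. The neutrophil list summed to 9.87 and 179.8 TPM in Nfib-floxed metastases and 288 and 162 TPM in RPR2 metastases, against 60.1 to 374 TPM in lung tumors, with Ly6g and Mpo below 1 TPM in every library. The part of either list in the result was not tested.

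**Figure D2:**
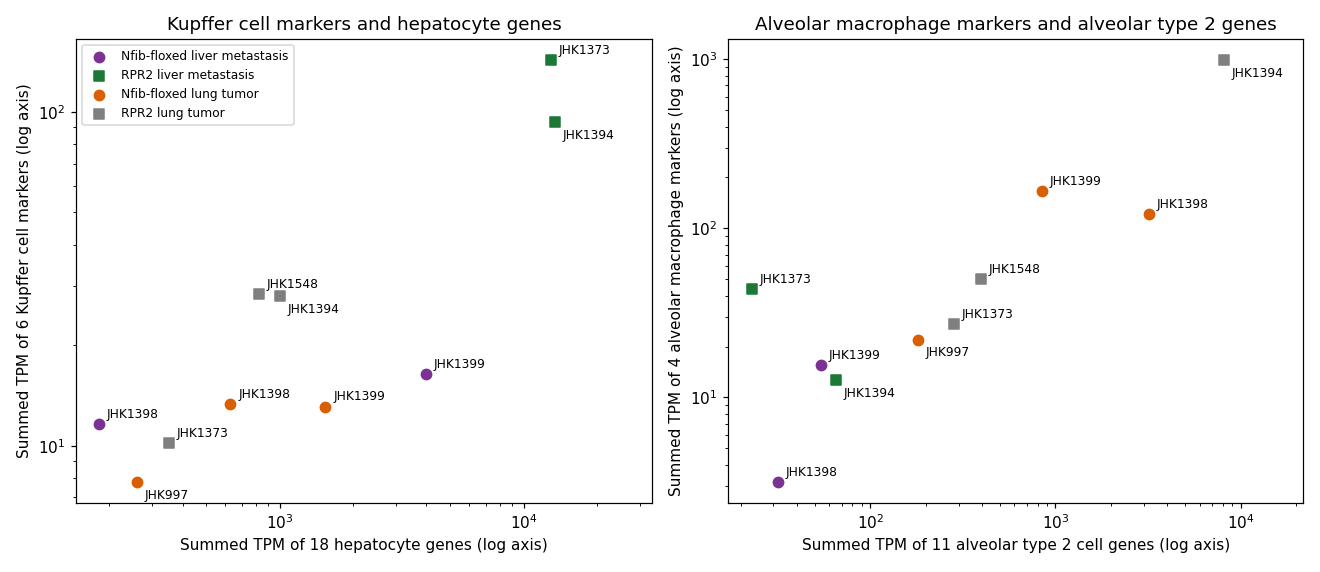
Summed TPM per library on log axes: left, the 6 Kupffer cell markers against 18 hepatocyte genes; right, the 4 alveolar macrophage markers against 11 alveolar type 2 cell genes. The RPR2 metastases stand at the upper right of the left panel (143 and 93.1 TPM of Kupffer cell markers), and the RPR2 lung tumor of JHK1394 at that of the right panel (991 TPM of alveolar macrophage markers).

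The second comparison asked how the Nfib genotype bears on these cells in metastases. Marco, Clec4f and Vsig4 fell in Nfib-floxed against RPR2 metastases. Marco averaged 0.136 ± 0.0731 TPM in Nfib-floxed and 16.5 ± 6.59 TPM in RPR2 metastases (SD, n = 2 each), a log2 difference of -3.90 ± 0.81 (limma, adjusted p = 0.0385). Clec4f averaged 3.32 ± 2.78 against 24.0 ± 1.26 TPM (-2.70 ± 0.59, adjusted p = 0.045) and Vsig4 2.31 ± 1.37 against 19.2 ± 6.49 TPM (-2.63 ± 0.55, adjusted p = 0.0385). The 3 fallen members of 9 tested stand beside 0.91% of genes called lower and 2.04% called in either direction.

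The other Kupffer cell markers pointed the same way without passing. Cd5l differed by -2.67 ± 0.64 (adjusted p = 0.0655, and with a pseudocount of 5 it passed at -2.14, adjusted p = 0.016), Folr2 by -1.89 ± 0.64 (adjusted p = 0.196) and Timd4 by -1.79 ± 0.74 (adjusted p = 0.318). All 6 and Chil3 lay lower in both Nfib-floxed metastases than in both RPR2 metastases, as did 22% of all genes. The median of the 6 was -2.65, beside 0.00 over all genes. Of the alveolar macrophage markers, Chil3 (-1.99 ± 1.65), Ear2 (-1.42 ± 1.14) and Ear1 (0.09 ± 1.23) did not pass.

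These 3 calls lie close to the threshold. None of the 3 held when any of 5 libraries was left out: the Nfib-floxed metastasis of JHK1398, either RPR2 metastasis, or the RPR2 lung tumor from JHK1394 or JHK1548. Lung tumors enter through the shared estimate of spread. Marco alone remained without the Nfib-floxed lung tumor of JHK997 or the RPR2 lung tumor of JHK1373, Marco and Vsig4 without the Nfib-floxed lung tumor of JHK1398 or of JHK1399, and Clec4f and Vsig4 without the Nfib-floxed metastasis of JHK1399. With quantile normalization Marco missed (adjusted p = 0.051), and with a pseudocount of 0.1 Clec4f (0.237) and Vsig4 (0.0971) did. Over 22 alternatives the adjusted p ranged from 0.0141 to 0.193 for Marco, 0.00708 to 0.239 for Clec4f and 0.0102 to 0.202 for Vsig4, with the direction the same in each. Beside them, all 18 hepatocyte genes lay lower in Nfib-floxed metastases (median -3.90), and Serpina1c and Cyp2e1 fell. Their part in the result was not tested.

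Clec4f was also set against hepatocyte RNA. Per 1000 TPM of Alb there were 4.56 TPM of Clec4f in the Nfib-floxed metastasis of JHK1399, against 6.14 and 6.99 TPM in the RPR2 metastases of JHK1373 and JHK1394. In the Nfib-floxed metastasis of JHK1398, where Alb stood at 26.3 TPM, the figure was 51.5 TPM. Marco differed between genotypes in its ratio to Clec4f as well: per 100 TPM of Clec4f there were 13.8 and 1.59 TPM of Marco in the Nfib-floxed metastases of JHK1398 and JHK1399, against 91.8 and 47.7 TPM in the RPR2 metastases. The ratio of Vsig4 overlapped, with 99.1 and 62.1 TPM per 100 TPM of Clec4f in Nfib-floxed and 103 and 58.8 TPM in RPR2 metastases. That of Cd5l overlapped too, with 551 and 91 TPM in Nfib-floxed and 252 and 132 TPM in RPR2 metastases. The Marco ratio in Nfib-floxed metastases rests on values near 0 (0.187 and 0.0838 TPM in JHK1398 and JHK1399). These ratios are descriptions of 4 libraries and were not tested.

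A like ratio was taken to the sum of the complement genes C1qa, C1qb and C1qc, which many tissue macrophages express. Their sum was 110.1 and 185 TPM in Nfib-floxed metastases, against 403 and 168 TPM for RPR2 metastases, so the groups overlapped. Per 100 TPM of C1q, the 6 Kupffer cell markers together had 10.5 and 8.83 TPM in Nfib-floxed metastases, against 35.5 and 55.6 TPM in RPR2 metastases. In lung tumors they had 2.14, 1.91 and 3.7 TPM (Nfib-floxed) and 3.24, 3.49 and 4.5 TPM (RPR2). By this ratio neither the metastases of the 2 genotypes nor metastases and lung tumors overlapped. By summed TPM the Nfib-floxed metastases (11.6 and 16.4 TPM) lay within the range of the lung tumors (7.8 to 28.5 TPM). The 4 alveolar macrophage markers had 2.88 to 10.9 TPM per 100 TPM of C1q in metastases. In lung tumors they had 6.03 to 123 TPM, with JHK1394 at the top and the remaining lung tumors at most 47.2 TPM. These ratios were not tested, nor was how evenly the macrophages of liver and lung express C1q. C1q is thus no measure of all macrophages.

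**Figure D3:**
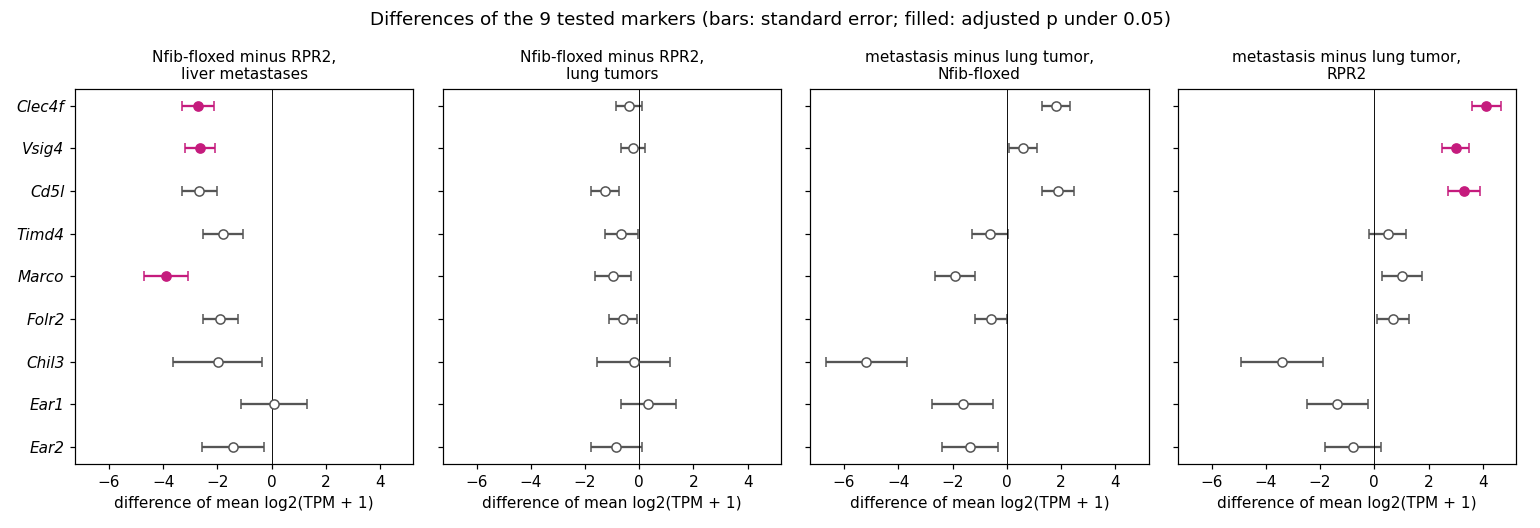
Differences of mean log2(TPM + 1) with standard errors for the 9 tested markers in 4 comparisons, filled where the adjusted p was under 0.05. The filled points are Clec4f, Vsig4 and Marco below 0 between genotypes in metastases, and Clec4f, Vsig4 and Cd5l above 0 between tissues in RPR2 mice.

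Between lung tumors of the 2 genotypes, no member of 9 passed by limma, and no gene of the table did (0% of genes). Cd5l was the member with an unadjusted p under 0.05 (-1.26 ± 0.53, limma, adjusted p = 0.613), beside 7.93% of genes. Marco averaged 4.24 ± 3.24 TPM in Nfib-floxed and 8.31 ± 4.74 TPM in RPR2 lung tumors (SD, n = 3 each), a difference of -0.98 ± 0.66. For all 10 members the groups overlapped, where 14.5% of genes do not. Chil3 differed by -0.21 ± 1.34, and by 1.66 without the RPR2 tumor of JHK1394.

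In 4 mice the liver metastasis and the lung tumor came from the same animal. The log2(TPM + 1) of Clec4f was higher in the metastasis by 1.09 in JHK1398, 2.55 in JHK1399, 4.51 in JHK1373 and 4.42 in JHK1394. Marco differed by -2.62 and -2.67 in the Nfib-floxed mice JHK1398 and JHK1399, against 2.38 and -0.09 in the RPR2 mice JHK1373 and JHK1394. Chil3 differed by -6.02, -6.09, -0.73 and -7.11 in JHK1398, JHK1399, JHK1373 and JHK1394, so JHK1373 stood apart. Ear2 was higher in the metastasis of JHK1373 (1.13) and lower in those of JHK1398 (-3.52), JHK1399 (-0.84) and JHK1394 (-3.35).

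**Figure D4:**
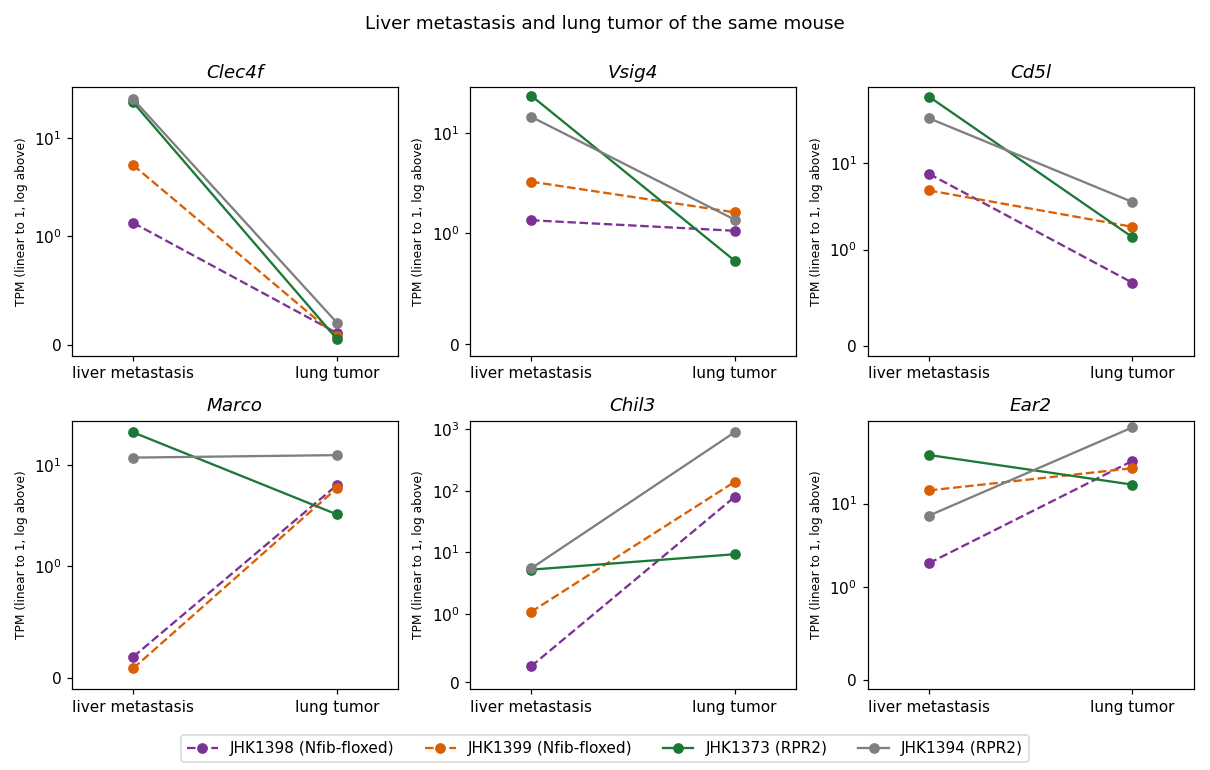
TPM (linear up to 1 and log above) of 6 markers in the liver metastasis and the lung tumor of the same mouse, joined by a line, dashed for Nfib-floxed and solid for RPR2 mice. Clec4f and Cd5l lie higher in the metastasis of all 4 mice, and Marco falls to 0.187 TPM or less in the metastases of the Nfib-floxed mice.

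Correlations between members across the 10 libraries are given as a description, since libraries share tissue and mice. The Pearson r of log2(TPM + 1) was 0.96 between Clec4f and Vsig4, 0.92 between Clec4f and Cd5l and 0.93 between Vsig4 and Cd5l. Marco and Timd4 correlated at 0.82 with each other but at 0.32 and 0.36 with Clec4f. Chil3 correlated at 0.81 with Ear1 and 0.73 with Ear2, and at 0.52 with Marco. Folr2 reached at most 0.59 with any member. Among all other named genes, those most like Clec4f were Rdh7, F12 and Gys2 (r from 0.986 to 0.991), those most like Vsig4 were Serpina1d, Cyp2c29 and Cyp2a4 (0.983 to 0.986), and those most like Cd5l were Gpt2, Proz and Mamdc4 (0.947 to 0.962). F12 encodes coagulation factor XII and Gys2 the liver form of glycogen synthase. Timd4 was most like Nr1h3 (0.955), which encodes the nuclear receptor LXR alpha. Chil3 was most like Ackr2, Ms4a8a and Rnf186 (0.968 to 0.972), Ear1 like Cxcl3 (0.982), Ear2 like Irx1 (0.941) and Folr2 like Lrrn4cl (0.922).

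Further genes of these cells were taken from lists. Of 11 other Kupffer cell genes 9 were tested, and none passed in any of the 6 comparisons. All 9 lay lower in Nfib-floxed than in RPR2 metastases (median -1.57, beside 0.00 over all genes). Between tissues their median was 0.34 within RPR2 mice, beside -0.15 over all genes, and averaged over both genotypes 4 lay higher and 5 lower in metastases. Hmox1, a heme-degrading enzyme, had 8.97 and 14.7 TPM in Nfib-floxed metastases and 91.4 and 35.8 TPM in RPR2 metastases, but 14.2 to 150.1 TPM in lung tumors. Il18bp, which encodes a binding protein of interleukin 18, had 12.9 and 21.6 TPM against 35.5 and 14.7 TPM, so the groups overlapped. Both are expressed by other cells too.

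Of 15 other alveolar macrophage genes 12 were tested, and 4 fell in metastases averaged over both genotypes, with none called higher, beside the 4.12% of all genes called lower. These were Ctsk, which encodes cathepsin K (-3.42 ± 0.78, adjusted p = 0.031), Atp6v0d2, a proton pump subunit (-2.43 ± 0.52, adjusted p = 0.0235), Plet1 (-2.03, adjusted p = 0.0391) and Itgax, the integrin CD11c (-1.81 ± 0.47, adjusted p = 0.0485). In lung tumors Ctsk had 632 TPM in the Scgb1a1-rich RPR2 tumor of JHK1394 and 22.3 to 78.6 TPM in the other 5. Without the Scgb1a1-rich tumors of JHK1394 and JHK1398, Ctsk (-2.71, adjusted p = 0.00854) and Atp6v0d2 (-1.99, adjusted p = 0.043) still passed and Plet1 and Itgax did not. Without the metastasis of JHK1398 none of the 4 passed (Ctsk -3.38, adjusted p = 0.129). Within RPR2 mice Atp6v0d2 passed (-2.84 ± 0.73, adjusted p = 0.0496, and 0.0861 without the Scgb1a1-rich tumors), and within Nfib-floxed mice none did. Car4, an enzyme that marks alveolar macrophages and lung capillaries, had 18.4 TPM in the RPR2 lung tumor from JHK1394, and 0.0498 to 1.87 TPM in the 9 others.

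Of 20 pan-macrophage genes 19 were tested. All 19 lay lower in metastases averaged over both genotypes (median -1.27, beside -0.10 over all genes). Ctss (-1.88 ± 0.42, limma, adjusted p = 0.0282), Laptm5 (-1.79, adjusted p = 0.0456) and C1qc (-1.36, adjusted p = 0.0456) fell, beside 4.12% of all genes called lower. None of these 3 passed without the Scgb1a1-rich lung tumors (adjusted p from 0.0505 to 0.126) or without the metastasis of JHK1398. Of 12 tumor-associated macrophage genes 4 lay higher and 8 lower in metastases averaged over both genotypes. None was called higher and 5 fell, beside the same 4.12% of all genes. These 5 were Gpnmb (-3.96 ± 0.50, limma, adjusted p = 0.00331), Lgals3 (-2.46), Mmp12 (-2.31), Mmp13 (-1.94) and Cd9 (-1.62 ± 0.38). Gpnmb and Mmp12 also passed without the Scgb1a1-rich lung tumors (-3.71 and -1.98) and without the metastasis of JHK1398 (-4.25 and -2.41). Lgals3 passed without those lung tumors but not without that metastasis, and Mmp13 and Cd9 in neither. Cd9, which tumor cells can express, rose between genotypes in metastases, with 2112 and 4422 TPM in Nfib-floxed and 181 and 543 TPM in RPR2 metastases (3.28 ± 0.59, adjusted p = 0.0212).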

How the data were processed

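RNA of 10 mouse tumors was measured by polyA-selected RNA sequencing (NEBNext Ultra II kit, per the labels' protocols). The build was GRCm38 and the tools included Salmon 0.12.0, bcl2fastq 2.20 and R 4.1.0, per the submitters' processing notes. No source used here states the annotation, settings or strand handling. The authors deposited 1 TPM value for each gene and library, with library totals of 1000000, so depth is unknown and no counting interval is given. Salmon divides reads among similar transcripts, which bears on Ear1, Ear2 and Chil3.

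Groups and mice came from the labels. limma 3.58.1 (R 4.3.3) was run on log2(TPM + 1) for the 15503 genes averaging 1 TPM or more, with 4 group means in a single model, a mean trend and two-sided moderated tests (6 residual and 4.56 prior degrees of freedom). The 6 comparisons were adjusted by Benjamini-Hochberg over all genes. The p-values measure the spread between these tumors. Lung tumor and metastasis of 4 mice are pairs by their mouse tags. Their deviations from group means correlated at -0.023, -0.008, 0.043 and 0.049, and mouse was a block in alternatives only. The test was tried on simulated data with 200 changed genes.

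The 18 gene lists named 197 symbols, all matched, and Sftpb, with 2 IDs, was taken at its higher. The plan was to name from each list up to 4 called genes with the largest difference, or the 2 most abundant where none was called. It was not followed for every list. Genes of the neuroendocrine tumor cell and erythroid lists are not named, and the called hepatocyte, club cell and alveolar type 2 cell genes only in part. Car4, Cd9, Alb, Csf2, Stab2, Sftpc, the named keratinocyte genes and the genes named for staying below 1 TPM were chosen after their values were seen. The members and lists were chosen with earlier results of these data known. Likeness is the Pearson r over 10 libraries among tested genes, predicted genes left out, and the gene most like Marco is not reported here. Sequences are from GENCODE M21 and RefSeq. Other settings tried were quantile normalization, median centring, a minimum mean of 5 TPM or none, pseudocounts of 0.1 and 5, rescaling without host tissue genes, robust moderation, array weights, mouse blocks, fits of 2 groups alone and leaving out each library, and, added after seeing the data, a fit without both Scgb1a1-rich lung tumors. Called list genes were also refitted without these tumors and without the metastasis of JHK1398, a choice made after seeing the data. Python 3.11.15, numpy 2.4.6, pandas 2.3.3 and matplotlib 3.10.9 did the rest.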

Additional observations from a re-analysis of the deposited data

How the results depend on the processing

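With 2 or 3 libraries a group and unknown depth, values near 0 TPM cannot be told from absence, and calls near the threshold move with the spread estimate. The count of members called was 0 in every alternative run for Nfib-floxed against RPR2 lung tumors, for Nfib-floxed metastases against lung tumors and for the interaction. Between genotypes in metastases the 3 calls became 4 with a pseudocount of 5, where Cd5l was added, 1 with a pseudocount of 0.1, and 0 with no filter, with a filter of 5 TPM, in the fit of the 2 groups alone and without the lung tumors of JHK1394 and JHK1398. Leaving out 1 library gave 0 to 2. Between tissues in RPR2 mice the 3 calls ranged from 1 to 3 when 1 library was left out. In the mean tissue effect the 4 calls ranged from 2 to 4, and were 2 without the lung tumors of JHK1394 and JHK1398. The cause was not tested.

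With mouse as a random replicate block, the counts were 3 between genotypes in metastases, 3 between tissues in RPR2 mice and 4 in the mean tissue effect. As a fixed block, which cannot be fitted with genotype, they were 3 between tissues in RPR2 mice and 3 in the mean tissue effect, where Vsig4 was lost. The blocks changed no other call of a member.

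Differences whose sign changed were all far from the threshold. In lung tumors between genotypes, Folr2 was 0.04 with array weights and 0.17 without JHK1394 and JHK1398, Chil3 was 0.35 with array weights and 1.43 without those lung tumors, and leaving out 1 library gave -0.46 to 0.03 for Vsig4, -1.56 to 1.66 for Chil3 and -0.52 to 1.60 for Ear1. Between tissues in RPR2 mice it gave -0.03 to 1.02 for Timd4 and -1.91 to 0.36 for Ear2. In the interaction it gave -1.51 to 0.60 for Ear1, which was 0.01 with a pseudocount of 5, and -1.78 to 0.62 for Ear2. In the mean tissue effect, Timd4 was 0.27 with quantile normalization, 0.09 with median centring, 0.13 with array weights and 0.26 without JHK1394 and JHK1398, with -0.33 to 0.24 on leaving out 1 library. Folr2 there was -0.08 with array weights and -0.04 without those lung tumors, with -0.18 to 0.26.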

Other observations

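Other cells and signals around resident macrophages were followed by the same lists. Among 17 transcription factor genes of resident macrophages, Id3, an inhibitor of bHLH factors that Kupffer cells need, fell between genotypes in metastases: it had 32.7 and 80.8 TPM in Nfib-floxed metastases (JHK1398 and JHK1399), against 521 and 609 TPM in RPR2 metastases (JHK1373 and JHK1394), a log2 difference of -3.43 ± 0.60 (limma, adjusted p = 0.0198). Many cell types, tumor cells among them, express Id3. It was the 1 gene of that list to pass there, and it missed without the metastasis of JHK1398 (-2.79, adjusted p = 0.113). Averaged over genotypes, Runx1 (-1.82, limma, adjusted p = 0.0325) and Klf4 (-1.61, adjusted p = 0.0485) fell in metastases and none rose, beside 4.12% of all genes called lower. Neither Runx1 nor Klf4 passed without the Scgb1a1-rich lung tumors (adjusted p = 0.0601 and 0.107). Of 9 markers of liver sinusoidal endothelium, the lining on which Kupffer cells sit, 8 were tested. Clec4g, a lectin of these cells, had 0.053 and 1.08 TPM in Nfib-floxed metastases, against 6.93 and 7.99 TPM in RPR2 metastases (-2.51 ± 0.50, adjusted p = 0.0333, and 0.13 without the metastasis of JHK1398), and 0 to 0.274 TPM in the lung tumors. Clec4g averaged 1.69 TPM over the 10 libraries and met the minimum of 1 TPM only through the RPR2 metastases. Its call thus rests on the group that let it into the test. Averaged over genotypes, Clec4g was called higher in metastases and Fcgr2b lower (-2.16 ± 0.48, limma, adjusted p = 0.0287), beside 5.88% of genes called. Of the 8 tested, 5 lay lower there. Stab2, another gene of that lining, had 1.86 and 5.21 TPM in Nfib-floxed and 5.04 and 3.12 TPM in RPR2 metastases, so those groups overlapped.

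Of 16 genes for macrophage growth factors and their receptors 13 were tested. Acvrl1 (-2.15, limma, adjusted p = 0.00867) and Tgfbr2 (-1.69, adjusted p = 0.0375), receptors of the TGF-beta family, fell in metastases averaged over genotypes. None rose, and 4.12% of all genes were called lower there. Without the Scgb1a1-rich lung tumors Acvrl1 still passed (-1.97, adjusted p = 0.0189) and Tgfbr2 did not (adjusted p = 0.0684). Csf2, the cytokine that alveolar macrophages need, was listed at 0 in all 4 metastases and had 0.115 to 1.12 TPM in lung tumors. Of 12 monocyte genes 11 were tested, of which 3 lay higher and 8 lower in metastases averaged over genotypes. Of 14 neutrophil genes 9 were tested, of which 5 lay higher and 4 lower. Ace and Ly6c2 of the monocyte list and Ltf of the neutrophil list fell, and none rose, beside 4.12% of all genes called lower. Without the Scgb1a1-rich lung tumors Ace alone of these passed (-2.52, adjusted p = 0.0455), and without the metastasis of JHK1398 none did. Prg2, an eosinophil granule protein, reached 8.95 TPM in the Nfib-floxed lung tumor of JHK1398 and at most 1.43 TPM elsewhere. The rest of the eosinophil list, Epx, Il5ra, Ccr3, Prg3 and Alox15, stayed below 1 TPM in every library.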
